A study of Mus musculus with 12 samples.

Results

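The Kruppel-like factors (KLFs) are zinc-finger transcription factors that share a DNA-binding end and read GC-rich and CACCC sequences. The 9 members described here, Klf1, Klf2, Klf3, Klf6, Klf9, Klf10, Klf11, Klf13 and Klf16, were chosen because they belong to this family and are known in blood cells, not by their measured values. Each is a row in all 12 count files, which list 37991 genes. A filter on low counts left 12837 genes for testing, and 7 of the 9 members passed it. Klf2 and Klf9 did not, and are given as reads.

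Family members differ in the part of the protein outside the zinc fingers. KLF1 is the erythroid activator that binds the CACCC box of the adult beta-globin promoter, and KLF1 in turn activates Klf3, whose product represses through the corepressor CtBP and can occupy the same sites. KLF9, KLF10, KLF11, KLF13 and KLF16 carry a segment that recruits the SIN3A corepressor, KLF10 and KLF11 are known as early TGF-beta response factors, KLF6 is a widely expressed activator, and KLF2 keeps lymphocytes and endothelium quiescent.

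Polyadenylated RNA came from MEL, a mouse erythroleukemia line that matures toward red cells when a chemical inducer is added. All 4 groups were induced, with an agent that the labels do not name. The control group was the unmodified line, and KD was the line with LDB1 knocked down, LDB1 being the adaptor that links GATA1 and TAL1 complexes at distant sites. The delta45 group carried the knockdown plus a construct called LDB1 delta 4/5 in the labels, which do not say what it lacks, and FL carried the knockdown plus a full-length LDB1 construct. Each group had 3 libraries. The labels leave unstated whether a line is 1 clone and whether replicate libraries had cultures of their own. The p-values therefore measure the spread between these libraries, which may be technical.

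Gene reads ranged from 8783970 to 20464959 per library. Expression is given as CPM, a gene's reads scaled to a common library total after TMM adjustment between libraries, with mean ± SD over 3 libraries. Ldb1, the targeted gene, stood at 718 ± 71.2 CPM in control, 130 ± 31.2 in KD, 765 ± 15.4 in delta45 and 3439 ± 245 in FL. The construct lines were thus compared at unequal Ldb1 read levels. Reads of a construct cannot be told from those of the endogenous gene, so these levels pool both. The KD libraries stood apart from each other: correlations of log2 CPM within KD were 0.955 to 0.977, against 0.984 to 0.994 within the other groups. Results that rest on 1 KD library are therefore given with and without it. Each of 11 matched erythroid markers, Klf1 among them, had reads in every group, but 7 of the 11 were called lower in KD than in control and 7 lower in delta45 than in control. In delta45 against control 1 was called higher and 3 were not called. The band 3 gene Slc4a1 went from 57.5 ± 13.4 CPM in control to 1.99 ± 0.176 in delta45. Tfrc was the marker called higher, at 849 ± 374 CPM in control and 2120 ± 318 in delta45, and is part of the sums that follow. The summed level of the 11 erythroid markers was 12199 to 13077 CPM in the control libraries and 2999 to 5537 CPM in the KD libraries. It was 5194 to 5384 CPM for delta45 and 33210 to 40330 CPM for FL. Summed megakaryocyte markers (15 matched) lay at 953 to 1049 CPM for control and 928 to 978 CPM for KD, but at 361 to 390.2 CPM for delta45 and 3026 to 3111 CPM for FL. The near-equal sums of control and KD covered 4 of 13 tested markers called higher and 4 called lower in KD, with Pf4 at 72.2 and 484 CPM and Itga2b at 774 and 266 CPM in control and KD. Of 16 myeloid markers, S100a8 and S100a9 had no reads in any group, and the sum was 115 to 143 CPM for control, 52.2 to 95.7 for KD, 6.51 to 9.54 for delta45 and 19.2 to 24.3 for FL. The sum of 13 lymphoid markers was 13.6 to 16.2 CPM for control, 35.2 to 51.1 for KD, 6.96 to 7.73 for delta45 and 10.4 to 12.3 for FL, and the 3 of them that were tested were called higher in KD than in control. That of 11 endothelial and stromal markers lay between 11.8 and 54.1 CPM over all groups, with Col1a2, Dcn and Lum at no reads. These marker levels moved with the groups, and their part in the results below was not tested. Fewer cells of a type and less RNA per cell cannot be told apart in bulk RNA.

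A gene was called when its edgeR quasi-likelihood p, adjusted over all 12837 tested genes, was under 0.05. In KD against control 4 of the 7 tested members were called, 3 higher and 1 lower, where 49.7% of all tested genes were called (25.6% higher and 24.1% lower). In FL against KD it was 4 of 7, 2 in each direction, against 58.0% of all tested genes (26.3% higher and 31.7% lower). In delta45 against KD it was 2 of 7, both lower, against 59.9% (29.2% higher and 30.7% lower). In FL against delta45 it was 3 of 7, 2 higher and 1 lower, against 52.8% (25.8% higher and 27.0% lower). In FL against control it was 3 of 7, 1 higher and 2 lower, against 59.3% (28.1% higher and 31.2% lower). In delta45 against control it was 5 of 7, 2 higher and 3 lower, against 64.4% (31.9% higher and 32.5% lower). With 7 members these counts are not read as a result about the family, also where they lie under the share of all tested genes, as in delta45 against KD. The results are the patterns of the single members. The delta45 against control count was 3 without control replicate 3 or without any 1 delta45 library.

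**Figure D1:**
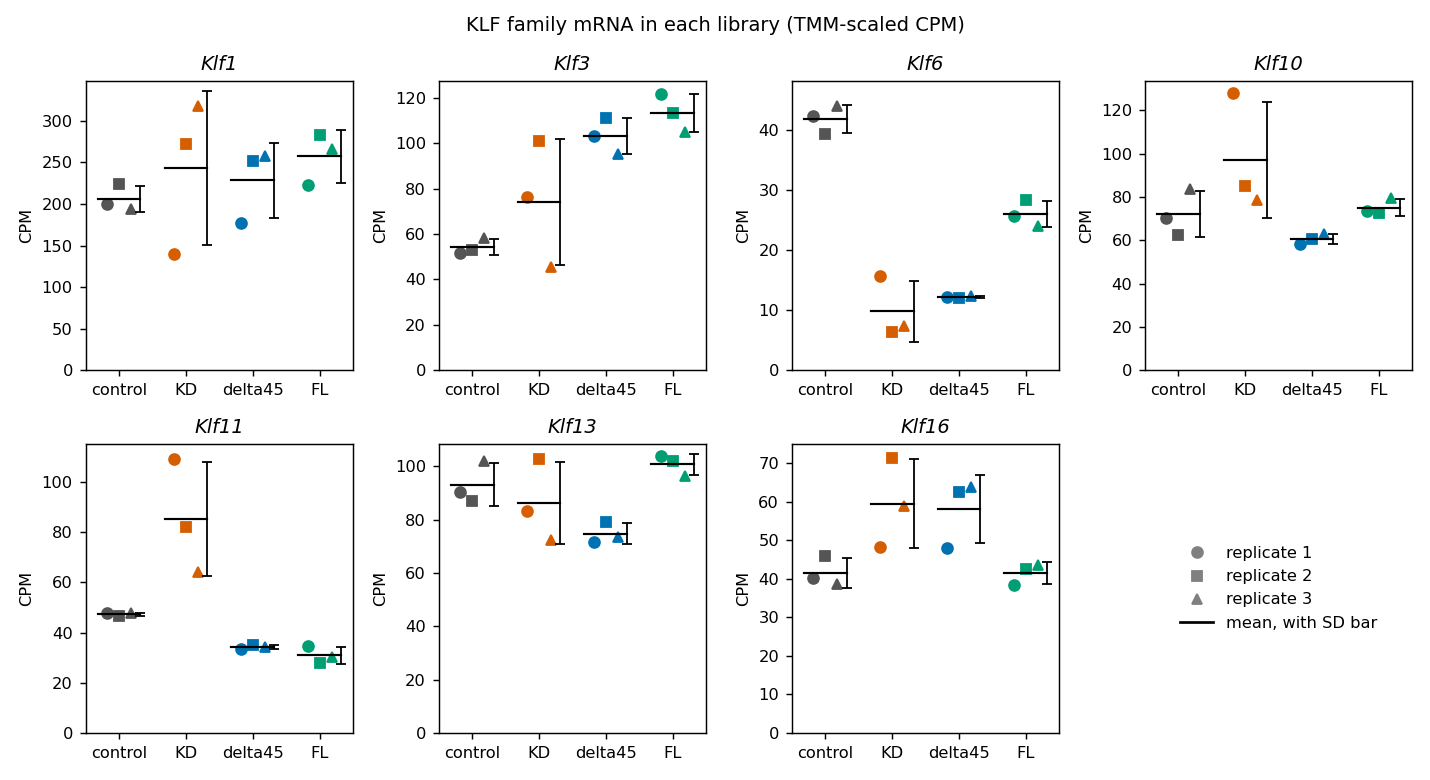
TMM-scaled CPM (y axis, from 0) of the 7 tested KLF genes in each library of the 4 groups (x axis). Symbols mark the replicate number, the horizontal line is the group mean and the bar beside it 1 SD. Klf6 was highest in control at 41.9 CPM, Klf11 was highest in KD at 85.1 CPM, and Klf1 overlapped between all groups.

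Klf1 (ENSMUSG00000054191), the erythroid activator, was the most abundant member and was not called different in any of the 6 comparisons. It read 199.6, 224 and 194 CPM in control, 140.2, 273 and 318 in KD, 177, 252 and 258 in delta45, and 222, 283 and 266 in FL. The control libraries lay inside the range of the KD libraries, and every pair of groups overlapped. The log2 change of KD against control was 0.24 ± 0.24 (SE), with a 95% interval from -0.27 to 0.76 (adjusted p = 0.419). Between the constructs, FL against delta45, it was 0.17 ± 0.24, with an interval from -0.35 to 0.69 (adjusted p = 0.575). KD replicate 1 held the lowest Klf1 of all 12 libraries, and without it KD was called higher than control (log2 change 0.52, adjusted p = 0.0128). A fit of only FL and control also called Klf1 higher in FL (0.31, adjusted p = 0.029, against 0.32 and adjusted p = 0.262 with all 4 groups). Other erythroid regulators, picked here after their values were seen, were also lowest within KD in that library. Gata1 read 575 CPM there and 767 and 950.4 in the other KD libraries, and the erythropoietin receptor gene Epor 278 CPM against 574 and 684. This was not particular to KD, as replicate 1 was lowest for Klf1, Gata1 and Epor within delta45 and within FL too. Within control, replicate 3 was lowest for each. In delta45 Epor read 362 CPM in replicate 1 against 481 and 484, and Gata1 465 against 481 and 474. In FL Epor read 694 against 855 and 771, and Gata1 872 against 939 and 972.

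The Klf1 promoter is shown because LDB1 complexes are known for sites that pair an E-box part with a GATA motif, and the Klf1 window is the only 1 of the 7 matched KLF windows that holds GATAA. RefSeq promoter windows of 250 bases before the start (GRCm38.p6) were matched for 7 of the 9 members, all but Klf10 and Klf16. The Klf1 window is chr8:84901732-84901981, on the plus strand. It reads 5′ to 3′, with capitals for the letters of 4 motifs found on either strand: the CACCC box read by KLFs, the CCAAT box, the GATA factor core, and a composite of an E-box part with that core.
Klf1: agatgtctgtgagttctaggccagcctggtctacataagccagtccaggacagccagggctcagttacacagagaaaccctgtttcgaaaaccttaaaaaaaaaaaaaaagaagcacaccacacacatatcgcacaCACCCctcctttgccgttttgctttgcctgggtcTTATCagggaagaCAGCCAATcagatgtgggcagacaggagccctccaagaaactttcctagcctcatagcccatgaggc
Each motif was searched on both strands. The core, GATAA, lay 80 to 76 bases before the start on the minus strand. It was part of a composite match from 80 to 65 on that strand, in which the E-box letters CTG precede the core with a gap of 8 bases. A CACCC lay at 114 to 110 and a CCAAT at 64 to 60, directly beside the composite. Of 32817 RefSeq windows of the same length, 22.6% hold GATAA and 0.503% hold that composite, which always contains the core. The composite with a gap of 7 bases was also searched. It stands in 0.747% of windows and had no match in the Klf1 window. A full E-box, CAGNTG, lay at 59 to 54, is not capitalised, and stands in 44.8% of windows. The CACCC box stands in 52.0% of windows and the CCAAT box in 33.8%. The Klf1 window had a GC content of 49.2%, below the 59.6 to 78.4% of the other 6 matched members and near the median of 52.4% over all windows. A match describes letters and does not show binding, and no occupancy was measured in these files.

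While Klf1 mRNA was not called in any comparison, most genes listed as KLF1 targets were lower in KD than in control and higher in FL than in KD. The list held 43 genes of globin, heme, membrane, iron and cell cycle function, Klf3 among them, of which 40 were tested. Of the 43, 9 also stand in the erythroid marker list and 4 are globins, whose near-identical copies can lose or exchange reads. In KD against control 26 of 40 were lower and 4 higher (24 to 27 lower and 3 to 5 higher with 1 library left out), where 24.1% of all tested genes were lower and 25.6% higher, and the median log2 change was -0.78 against 0.02 for all tested genes. In FL against KD 28 were higher and 8 lower, where 26.3% of all tested genes were higher and 31.7% lower, with a median of 0.75 against -0.06 for all tested genes. In delta45 against KD 20 were higher and 9 lower (median 0.39), where 29.2% of all tested genes were higher and 30.7% lower. In FL against delta45 20 were higher and 12 lower (median 0.74), where 25.8% of all tested genes were higher and 27.0% lower. Against control, FL had 18 higher and 14 lower (median 0.27), where 59.3% of all tested genes were called. Delta45 had 9 higher and 18 lower against control (median -0.09), in sum near the 64.4% of all tested genes called there. The list was assembled with earlier results of these data known, and the erythroid marker sums given above moved in the same comparisons.

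The targets did not move as a block. Alas2, the erythroid enzyme that begins heme synthesis, stood at 1632 ± 115 CPM in control, 488 ± 151 in KD, 305 ± 15.2 in delta45 and 5166 ± 394 in FL. It was thus lower in delta45 than in KD (log2 change -0.68, adjusted p = 0.00505) and higher in FL than in KD (3.40, adjusted p = 2.17e-08). Pklr, the red cell pyruvate kinase, stood at 94.0 ± 4.53 CPM in control, 22.5 ± 2.15 in KD, 38.8 ± 1.06 in delta45 and 19.2 ± 1.74 in FL. Its FL level was below that of delta45 (log2 change -1.01, adjusted p = 5.28e-06). Tspo2, an erythroid membrane protein gene, was at 28.2 ± 1.99 CPM in control, 10.3 ± 0.753 in KD, 32.2 ± 4.73 in delta45 and 29.4 ± 1.64 in FL, higher than KD with both constructs. Cdkn1b, the cell cycle inhibitor p27, was at 203 ± 30.5 CPM in control, 82.0 ± 8.23 in KD, 56.2 ± 4.98 in delta45 and 144 ± 6.09 in FL.

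**Figure D2:**
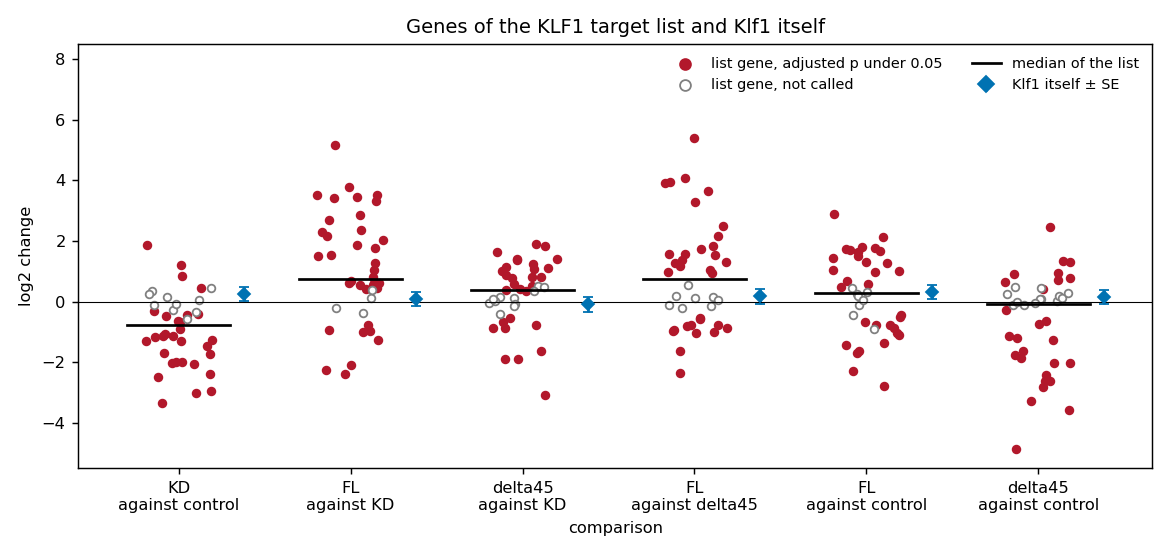
Log2 change (y axis) of the 40 tested genes of the KLF1 target list in each of the 6 comparisons (x axis). Filled points passed an adjusted p under 0.05, open points did not, the line is the list median and the diamond is Klf1 itself with its SE. The list median runs from -0.78 in KD against control to 0.75 in FL against KD, while Klf1 stays between -0.09 and 0.32.

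Klf3 (ENSMUSG00000029178), the CtBP-recruiting repressor, was higher than in control in both construct lines. It read 51.8, 52.9 and 58.4 CPM in control, 76.2, 100.8 and 45.4 in KD, 103, 111 and 95.3 in delta45, and 122, 113 and 105 in FL. All 6 construct libraries lay above all 3 control libraries, while the KD libraries spanned from below the lowest control library to above the lowest delta45 library. Klf3 was 2.08-fold higher in FL than in control (log2 change 1.06 ± 0.209, adjusted p = 0.000751) and 1.90-fold higher in delta45 than in control (0.93 ± 0.208, adjusted p = 0.00165). FL was 1.53-fold above KD (0.61 ± 0.207, adjusted p = 0.0221). FL against delta45 had an interval from -0.31 to 0.58 around 0.13 (adjusted p = 0.613). The comparisons with KD turned on single libraries and on the method. With all libraries, delta45 against KD was called with no low-count filter (0.49, adjusted p = 0.0277), with limma-voom (0.56, adjusted p = 0.0322) and with a replicate block (0.51, adjusted p = 0.0358). FL against KD was not called in a fit of 2 groups only (0.67, adjusted p = 0.0598). Single libraries moved the calls as follows. KD against control (log2 change 0.45, adjusted p = 0.0921) was called without KD replicate 3 (0.70, adjusted p = 0.000667), and delta45 against KD (0.48, adjusted p = 0.0598) without KD replicate 2 (0.79, adjusted p = 0.00371). FL against KD was not called without FL replicate 1 (0.56, adjusted p = 0.0678). Exons of Klf3 overlap those of an antisense RNA gene, Gm20033, and the library kit does not mark strand, so reads of the 2 cannot be told apart.

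The Klf3 window, chr5:64803271-64803520 on the plus strand, is shown because Klf3 is a known KLF1 target and its window is dense in the letters that KLFs read. Capitals mark CACCC on either strand.
Klf3: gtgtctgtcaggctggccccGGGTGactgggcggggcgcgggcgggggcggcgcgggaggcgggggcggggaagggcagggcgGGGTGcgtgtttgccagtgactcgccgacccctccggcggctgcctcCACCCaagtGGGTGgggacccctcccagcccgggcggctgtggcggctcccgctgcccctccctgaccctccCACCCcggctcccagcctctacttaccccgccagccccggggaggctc
It holds 5 CACCC and 10 matches to the longer KLF motif CCNCNCCC, some of which overlap a CACCC or each other. The other 6 matched members had at most 1 CACCC, and none to 5 of the longer motif. Over all windows, 52.0% held at least 1 CACCC and 45.9% at least 1 of the longer motif, and counts per window were not compared. The Klf3 window had a GC content of 78.4%, against a median of 52.4% over all windows. Both motifs consist mostly of C and G, and how far their counts follow GC content was not tested.

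Klf6 (ENSMUSG00000000078), a widely expressed activator, had the largest change of any tested member. It read 42.3, 39.4 and 44.0 CPM in control, 15.7, 6.30 and 7.44 in KD, 12.2, 11.9 and 12.4 in delta45, and 25.7, 28.4 and 24.1 in FL. The control libraries lay above the FL libraries, and these lay above all 6 KD and delta45 libraries. KD was 4.20-fold below control (log2 change -2.07 ± 0.252, adjusted p = 2.61e-05). FL was 2.60-fold above KD (1.38 ± 0.252, adjusted p = 0.00045) and 2.13-fold above delta45 (1.09 ± 0.245, adjusted p = 0.00213). Delta45 was 3.44-fold below control (-1.78 ± 0.245, adjusted p = 3.4e-05). It was not called against KD (0.29 ± 0.252, interval from -0.26 to 0.83, adjusted p = 0.335), but without KD replicate 1, the highest of the KD libraries, it was 0.85 above (adjusted p = 0.000222). FL remained 1.61-fold below control (-0.69 ± 0.238, adjusted p = 0.0238). That last call was lost without control replicate 1 or 3 or FL replicate 1 or 3, with adjusted p-values from 0.0572 to 0.0811.

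The Klf6 window, chr13:5861239-5861488 on the plus strand, is printed because Klf6 had the largest fold change among the members.
Klf6: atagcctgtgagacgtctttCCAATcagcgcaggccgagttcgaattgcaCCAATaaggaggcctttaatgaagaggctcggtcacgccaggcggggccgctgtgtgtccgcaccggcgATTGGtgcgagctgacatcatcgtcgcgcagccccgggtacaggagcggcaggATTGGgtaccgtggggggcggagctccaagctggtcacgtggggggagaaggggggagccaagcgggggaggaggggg
Capitals mark CCAAT, which occurs 4 times, on both strands, in a window that holds neither the GATA core nor a CACCC box. Of all windows, 33.8% hold a CCAAT.

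Klf11 (ENSMUSG00000020653), a SIN3A-recruiting factor of the TGF-beta inducible pair, ran opposite to Klf6 in the knockdown. It read 47.7, 46.5 and 47.7 CPM in control, 109, 82.1 and 64.0 in KD, 33.4, 35.1 and 34.1 in delta45, and 34.7, 27.9 and 30.2 in FL. All KD libraries lay above control, and all libraries with a construct lay below it. KD was 1.80-fold above control (log2 change 0.85 ± 0.16, adjusted p = 0.000762). FL was 2.75-fold below KD (-1.46 ± 0.164, adjusted p = 8.37e-06) and delta45 2.49-fold below KD (-1.32 ± 0.162, adjusted p = 2.27e-05), and both calls held with any 1 library left out. FL was 1.53-fold below control (-0.61 ± 0.163, adjusted p = 0.00574). Delta45 was 1.38-fold below control (-0.47 ± 0.161, adjusted p = 0.0211), a call lost without control replicate 3 or without any 1 delta45 library (adjusted p from 0.0537 to 0.0734). FL and delta45 overlapped, with an interval from -0.49 to 0.21 around -0.14 (adjusted p = 0.483).

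The Klf11 window, chr12:24651121-24651370 on the plus strand, is printed beside the Klf6 window because the pair moved in opposite directions on knockdown.
Klf11: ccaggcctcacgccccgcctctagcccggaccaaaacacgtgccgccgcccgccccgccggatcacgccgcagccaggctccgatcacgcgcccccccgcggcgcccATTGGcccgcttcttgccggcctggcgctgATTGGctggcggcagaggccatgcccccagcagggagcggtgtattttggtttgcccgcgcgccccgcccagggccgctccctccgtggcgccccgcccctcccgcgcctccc
Capitals mark its 2 CCAAT, both on the minus strand. It has 5 matches to CCNCNCCC and neither a CACCC box nor the GATA core. The windows of Klf6 and Klf11 thus share the presence of CCAAT and of the longer KLF motif, but the Klf13 window also holds both. Over all windows, 33.8% hold a CCAAT and 45.9% the longer motif.

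Klf10 (ENSMUSG00000037465), the other TGF-beta inducible member, changed less. It read 70.3, 62.6 and 83.5 CPM in control, 128, 84.9 and 78.8 in KD, 58.2, 60.5 and 63.1 in delta45, and 73.3, 72.5 and 79.5 in FL. KD replicate 1 stood above all others, and the remaining KD libraries lay close to the highest control library. KD was 1.35-fold above control (log2 change 0.43 ± 0.166, adjusted p = 0.0457), but the call was lost without KD replicate 1 (0.18, adjusted p = 0.234), without control replicate 1 (0.41, adjusted p = 0.113), without control replicate 2 (0.34, adjusted p = 0.16), with RLE scaling (0.40, adjusted p = 0.0647), in a fit of 2 groups only (0.43, adjusted p = 0.138) and with DESeq2 or limma-voom. Delta45 was 1.61-fold below KD, and these groups did not overlap (-0.68 ± 0.166, adjusted p = 0.00332). FL against KD was not called (-0.37 ± 0.166, adjusted p = 0.0694), but was without KD replicate 3 (-0.51, adjusted p = 0.0164). FL against delta45 was not called (0.31 ± 0.166, adjusted p = 0.133), but was in a fit of these 2 groups only (0.32, adjusted p = 0.00394). Neither construct line was called against control.

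Klf13 (ENSMUSG00000052040), a SIN3A-binding factor also described as an activator of globin promoters, was lowest in delta45. It read 90.4, 86.9 and 102.1 CPM in control, 83.4, 102.8 and 72.5 in KD, 71.8, 79.1 and 73.3 in delta45, and 104, 102.2 and 96.5 in FL. The delta45 libraries lay below every control and FL library, while the KD libraries spread over both. FL was 1.35-fold above delta45 (log2 change 0.43 ± 0.125, adjusted p = 0.0103), and this call held with any 1 library left out. Delta45 was 1.25-fold below control (-0.32 ± 0.125, adjusted p = 0.0384), and this was not called without control replicate 1 or 3 or without any 1 delta45 library (adjusted p from 0.0596 to 0.157). KD against control was -0.11 ± 0.125, with an interval from -0.38 to 0.16 (adjusted p = 0.47). Of the comparisons with KD, FL was called 0.44 above it without KD replicate 2 (adjusted p = 0.00714) and delta45 0.32 below it (log2 change -0.32, adjusted p = 0.0283) without KD replicate 3.

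Klf16 (ENSMUSG00000035397), a SIN3A-binding repressor, was higher in KD and delta45 than in control and FL. It read 40.2, 45.9 and 38.7 CPM in control, 48.4, 71.4 and 58.9 in KD, 48.0, 62.5 and 64.0 in delta45, and 38.4, 42.5 and 43.7 in FL. The 6 KD and delta45 libraries lay above the 6 control and FL libraries. KD was 1.43-fold above control (log2 change 0.52 ± 0.154, adjusted p = 0.0137) and FL 1.43-fold below KD (-0.52 ± 0.154, adjusted p = 0.0118). Delta45 was above control (0.48 ± 0.153, adjusted p = 0.0142) and FL below delta45 (-0.48 ± 0.154, adjusted p = 0.0178). FL against control had a log2 change of 0.00 with an interval from -0.33 to 0.34 (adjusted p = 0.995), and delta45 against KD -0.03 with an interval from -0.36 to 0.29 (adjusted p = 0.859). Single libraries moved 3 of the calls past the threshold: KD against control without control replicate 3 (0.45, adjusted p = 0.0541) or KD replicate 2 (0.36, adjusted p = 0.0702), FL against KD without KD replicate 2 (-0.30, adjusted p = 0.114), and FL against delta45 without delta45 replicate 2 or 3 or FL replicate 1 (adjusted p from 0.0667 to 0.0981).

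**Figure D3:**
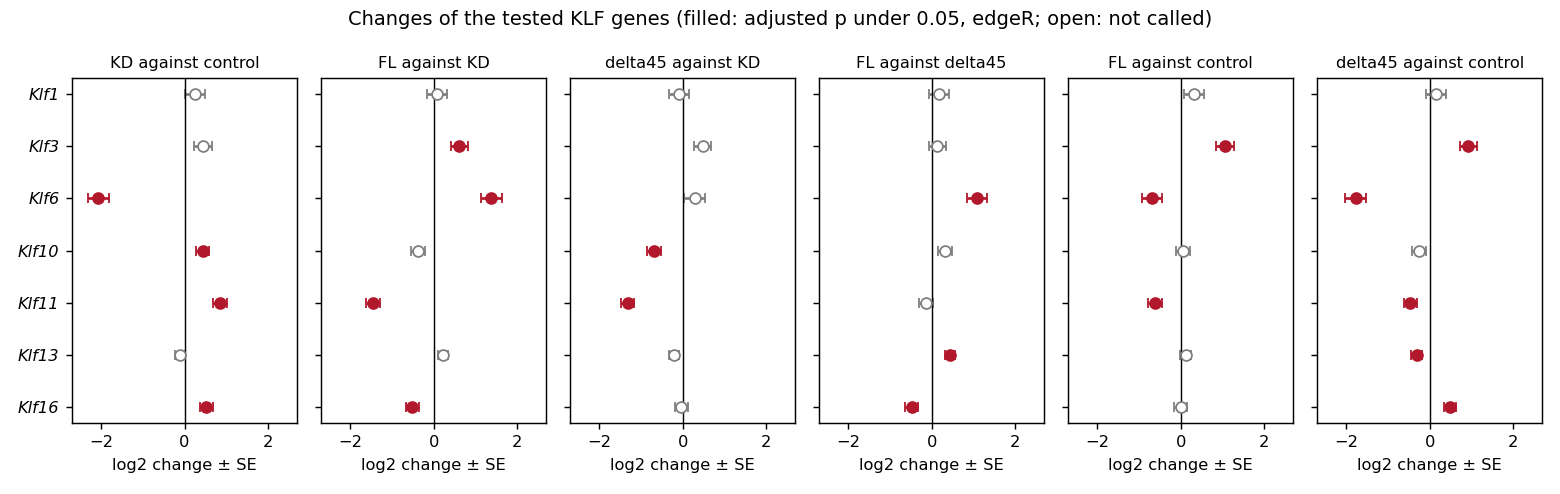
Log2 change with its SE (x axis) of the 7 tested KLF genes (y axis), with a panel for each of the 6 comparisons. Filled points passed an edgeR adjusted p under 0.05 and open points did not. Klf6 is lowest at -2.07 in KD against control and rises by 1.38 in FL against KD, while Klf11 is at 0.85 and -1.46 in those panels.

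Klf2 and Klf9 were close to silent in these cells. Klf2 (ENSMUSG00000055148), the factor of quiescent lymphocytes and endothelium, had 1 read over all 12 libraries, in KD replicate 3. Klf9 (ENSMUSG00000033863), a glucocorticoid-induced SIN3A-binding factor, had 3 reads, all in KD replicate 2. Neither gene had a read in the control, delta45 or FL libraries. A count of 0 allows up to 0.0826 CPM in control, 0.0598 in delta45 and 0.0852 in FL (3 reads over the group, counting error only), so no fold change is given.

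Levels were compared between genes only after division by exon length, as CPM per kb of the exons annotated in GENCODE M21. Klf1 stood at 135 ± 10.3 CPM per kb in control, and the next member, Klf10, at 17.3 ± 2.53. In KD, delta45 and FL, Klf1 stood at 159 ± 60.4, 149 ± 29.6 and 168 ± 20.5 CPM per kb. Klf1 made up 65.6% ± 2.57 of the summed KLF level per kb in control, 63.3% ± 13.0 in KD, 69.0% ± 3.18 in delta45 and 70.4% ± 2.74 in FL. Its share ran from 49.0 to 74.5% over the KD libraries and from 63.1 to 72.6% over the other 9. Klf3 was the lowest of the expressed members in control, at 4.83 ± 0.314 CPM per kb, and Klf6 the lowest in KD, delta45 and FL, at 2.23 ± 1.17, 2.78 ± 0.0533 and 5.93 ± 0.493 CPM per kb. Exon length is that of all annotated exons, so a gene with long exons that these cells do not use is understated.

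**Figure D4:**
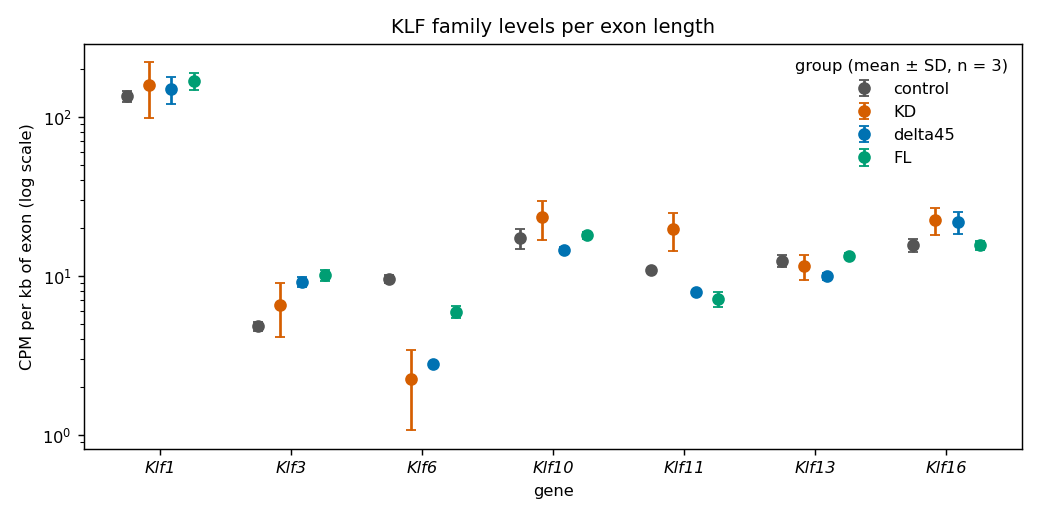
CPM per kb of annotated exon (y axis, log scale) of the 7 tested KLF genes (x axis) in the 4 groups, as mean ± SD over 3 libraries. Klf1 lies at 135 to 168 CPM per kb in all groups, and the other 6 genes between 2.23 and 23.3.

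Ordered by group means of CPM, neighbouring groups were called different in few places. For Klf6 the order was control, FL, delta45, KD, and the steps from control to FL and from FL to delta45 passed the test. For Klf11 it was KD, control, delta45, FL, with the steps from KD to control and from control to delta45 called. For Klf16 it was KD, delta45, control, FL, with the step from delta45 to control called. For Klf3 (FL, delta45, KD, control), Klf10 (KD, FL, control, delta45), Klf13 (FL, control, KD, delta45) and Klf1 (FL, KD, delta45, control) no neighbouring step was called, although steps further apart were called for Klf3, Klf10 and Klf13.

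Among the members themselves, log2 CPM over the 12 libraries ran most alike for Klf10 and Klf11 (Pearson r = 0.75) and most opposed for Klf6 and Klf16 (r = -0.87). These correlations describe 12 libraries that fall into 4 groups. The gene most like Klf6 among 9373 tested genes of mean 5 CPM or more was Mipol1 (r = 0.97), followed by Rnf43 and Abraxas2. Rnf43, a membrane ubiquitin ligase that dampens Wnt signalling, stood at 65.3, 4.21, 5.16 and 24.9 CPM in control, KD, delta45 and FL. The gene most like Klf11 was Coro2a (r = 0.99), a coronin, at 30.0, 63.1, 18.1 and 15.1 CPM in the same order. Klf3 ran with Tcf20, Arid2 and Kat6a (r = 0.96 for each), chromatin regulators that had their highest levels in the construct lines, as at 155, 197, 334 and 354 CPM for Arid2. Klf16 ran with Tprn (r = 0.97), Klf10 with Ttc7b (r = 0.95), Klf1 with Aspscr1 (r = 0.90) and Klf13 with Zswim4 (r = 0.88).

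Outside the 9 members, 6 of 17 other KLF and SP genes passed the count filter. Klf5, an activator mostly known from epithelia, read 8.14, 11.7 and 7.70 CPM in control, 12.4, 23.8 and 17.2 in KD, 27.7, 29.3 and 25.4 in delta45, and 10.2, 10.1 and 9.12 in FL. It was higher in KD than in control (log2 change 0.95, adjusted p = 0.00346) and lower in FL than in delta45 (-1.49, adjusted p = 8.57e-05). Klf7, which is known from neurons, lay between 2.81 and 4.82 CPM in control and between 5.78 and 14.5 CPM in the 9 other libraries. Sp1, the ubiquitous GC-box activator, fell in KD against control (log2 change -0.67, adjusted p = 0.00491), from 248 to 289 CPM in control to 133 to 212 in KD, and was higher in delta45 than in KD (1.18, adjusted p = 7.29e-05). Sp4 also fell in KD (-0.96, adjusted p = 0.0109), and Sp3 was not called there (-0.20, adjusted p = 0.446). In KD against control 2 of the 6 were higher and 2 lower, where 25.6% of all tested genes were higher and 24.1% lower. Klf4, Klf8, Klf14, Sp5 and Sp6 had no reads in any library.

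The cofactors of these proteins were read from a list of 17 corepressors and coactivators. In KD against control 7 of 17 were higher and 2 lower, in sum near the 49.7% of all tested genes called there. Without control replicate 3 it was 4 higher, and 1 was higher against a fold of 1.5. Hdac1, a deacetylase of the SIN3 complex, was higher in KD (log2 change 1.17, adjusted p = 2.98e-05) and Sin3b was higher (0.50, adjusted p = 0.0027), while the SIN3A gene itself was not called (Sin3a, 0.09, adjusted p = 0.43). In FL against KD 7 were higher and 4 lower, where 58.0% of all tested genes were called (26.3% higher and 31.7% lower). Ctbp2, the corepressor partner of KLF3, stood at 47.1 ± 1.63 CPM in control, 45.9 ± 3.57 in KD, 49.3 ± 2.25 in delta45 and 88.0 ± 4.04 in FL, and was called higher in FL than in each other group (log2 change against delta45 0.83, adjusted p = 9.95e-06). Ctbp1 was lower in delta45 than in FL (log2 change of FL against delta45 0.79, adjusted p = 0.000114).

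For the inducible members, 17 tested genes of TGF-beta signalling and 15 immediate early genes were read. In KD against control 3 TGF-beta genes were higher and 4 lower, where 25.6% of all tested genes were higher and 24.1% lower. Without KD replicate 3 it was 5 higher. Id1, which responds to TGF-beta and BMP signals, stood at 13.9 ± 3.15 CPM in control, 68.8 ± 23.2 in KD, 8.64 ± 0.917 in delta45 and 7.93 ± 2.58 in FL. Its order of levels, KD over control over the construct lines, was that of Klf11. Of the 15 immediate early genes 7 were higher in KD than in control and the others were not called, where 49.7% of all tested genes were called and 25.6% were higher. In FL against KD 8 were lower and 2 higher, where 58.0% of all tested genes were called (31.7% lower and 26.3% higher). Ier3, a stress-induced survival gene, was at 27.0 ± 5.70 CPM in control, 103 ± 41.4 in KD, 16.7 ± 2.92 in delta45 and 41.1 ± 3.23 in FL.

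In FL against KD 58.0% of all tested genes were called (26.3% higher and 31.7% lower), a share to set beside each list count given for that comparison in this paragraph. For the silent members, a list of the MEK5-ERK5 route to KLF2 and of KLF2 targets, with 12 genes tested, gave 2 higher and 5 lower in FL against KD, in sum near that share. The genes of the route split, with Map3k2 and Mef2a higher and Map3k3 and Hdac7 lower, and the other 3 lower genes, Itgb7, Cdkn1a and Nos3, are known as KLF2 targets. In the same comparison 13 tested genes of the glucocorticoid receptor and its targets gave 2 higher and 7 lower. Fkbp5, a glucocorticoid response gene that is read in these cells while Klf9 is not, was higher in KD than in control (log2 change 1.25, adjusted p = 2.16e-07) and lower in FL than in KD (-2.03, adjusted p = 3.58e-09). Its rise in KD was not that of the list. In KD against control 4 of the 13 were higher and 5 lower, where 25.6% of all tested genes were higher and 24.1% lower. With 1 library left out, 2 to 5 were lower. Per1 stood at 234 ± 79.5 CPM in control and 82.1 ± 10.7 in KD. Among 15 erythroid partners of KLF1, 7 were higher and 5 lower in FL against KD, with Gata1 not called (0.28, adjusted p = 0.12) and the corepressor gene Cbfa2t3 (ETO2) higher (1.90, adjusted p = 4.72e-08). The 7 higher include Ldb1 itself (4.73, adjusted p = 1.64e-09), the gene that the FL construct supplies, so its place among them was set by the design.

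Scaling by library totals only, without TMM, moved the median of all tested genes by -0.27 in FL against KD, -0.28 in FL against delta45 and -0.22 in FL against control. Of called genes, the share higher went from 45.4 to 26.7%, from 48.8 to 29.2% and from 47.4 to 31.8% in these comparisons. Under that scaling, FL was no longer called for Klf3 against KD (0.33, adjusted p = 0.203) or for Klf13 against delta45 (0.16, adjusted p = 0.338), while Klf10 was called lower in FL than in KD (-0.66, adjusted p = 0.00865). Delta45 was no longer called against control for Klf11 (-0.41, adjusted p = 0.061) and Klf13 (-0.26, adjusted p = 0.096). Every member called with TMM had the same direction with RLE scaling and with library totals, although RLE scaling ended the call of Klf10 in KD against control.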

How the data were processed

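RNA-seq was made from 12 libraries in 4 groups of 3, with groups and replicate numbers taken from the labels. The deposited values are raw read counts per Ensembl gene for 37991 genes, made by the authors with cutadapt 1.1, TopHat 1.4.1 and HTSeq 0.5.3p9 on mm9, per the submitters' processing notes, which also name DESeq 1.10.1. How these were set, and with which annotation, is not stated there. The TruSeq V2 kit, per the labels, does not mark strand. The 5 closing rows that name no gene stayed out of library sizes and tests, and reads aligned to several places were 38.7 to 53.3% of those tallied, least in delta45 and most in control.

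Symbols matched 32919 identifiers. edgeR 4.0.16 in R 4.3.3 was run with TMM scaling, filterByExpr and glmQLFTest on all 12 libraries with 4 group means, and p-values were adjusted by Benjamini-Hochberg over the 12837 genes tested. SE is the absolute log2 change over the root of F, and intervals are at 95%. The tests were checked on simulated counts of KD against control with known changes. They called 15 of 50 changes of 1.5-fold, 36 of 50 of 2-fold, 47 of 50 of 4-fold and 50 of 50 of 8-fold. There were 9 false calls among 12358 genes. The simulation changed only 50 genes at each fold, while 49.7% of all tested genes were called in the real KD against control. The adjustment of p-values was therefore stricter there, and these shares are not the power of the tests on the real counts. A change near 1.5-fold that was not called is still not shown to be absent. An exact permutation test of 3 against 3 cannot go below 0.1. DESeq2 1.42.0 and limma 3.58.1 (voom) were alternatives, as were other scalings and filters, the replicate number as a block and leaving out each library. Named are all members, Ldb1, up to 4 genes of each list by adjusted p in a comparison, and up to 3 genes most like each member. The members and the lists were chosen with earlier results of these data known.

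Promoter windows are RefSeq's (GRCm38.p6). Exon lengths are the merged exons of GENCODE M21 on GRCm38, a build other than the authors'.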

Additional observations from a re-analysis of the deposited data

How the results depend on the processing

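Of 672 values of the 7 tested members under the alternatives, 592 kept their direction and their side of the threshold, 47 lost a call, 13 gained one and 20 changed sign, the last only among values not called in the fit of all libraries. Calls are limited by 3 libraries a group and by the spread within KD. The depth behind a member is at least 368 reads in a group, except for Klf2 and Klf9. The causes of the changes below were not tested, apart from those of the 1.5-fold test, which asks for a larger change. Against that fold, the members called were 1 for KD against control, 2 for FL against KD and 1 for each of the other comparisons (delta45 against KD, FL against delta45, FL against control and delta45 against control). All genes called went from 6380 to 2387, 7445 to 3510, 7693 to 3506, 6778 to 3233, 7616 to 3835 and 8271 to 4596 in KD against control, FL against KD, delta45 against KD, FL against delta45, FL against control and delta45 against control. Of the list counts given above, those of KLF1 targets went under that test from 4 to 2 higher in KD against control, from 20 to 12 higher and 9 to 4 lower in delta45 against KD, from 12 to 7 lower in FL against delta45, from 14 to 9 lower in FL against control and from 9 to 3 higher in delta45 against control. The SIN3 and CtBP list went from 7 to 1 higher and 2 to 0 lower in KD against control and from 7 to 3 higher and 4 to 1 lower in FL against KD. The other KLF and SP genes went from 2 to 1 higher and 2 to 0 lower in KD against control. Immediate early genes went from 7 to 4 higher in KD against control, and in FL against KD from 2 to 1 higher. In FL against KD the KLF2 list went from 5 to 3 lower and the glucocorticoid list from 2 to 0 higher. The glucocorticoid list went from 5 to 1 lower in KD against control. In a fit of 2 groups only, KD against control gave 2 KLF1 targets higher, 1 other KLF or SP gene lower and 2 of the glucocorticoid list lower. With library totals only, FL against KD gave 4 of the SIN3 and CtBP list higher. Delta45 against control called 3 of the members with library totals only, and 3 to 5 with 1 library left out. With library totals only, Klf1 went to -0.17 in FL against KD and -0.11 in FL against delta45, Klf3 to -0.14 in FL against delta45, Klf10 to -0.16 in FL against control, Klf13 to -0.044 in FL against KD and -0.11 in FL against control, and Klf16 to -0.22 in FL against control. Klf16 in FL against control was also -0.011 with RLE scaling, -0.0099 with DESeq2 and -0.0085 in a fit of 2 groups only. With 1 library left out, Klf1 ran from -0.14 to 0.32 in FL against KD and from -0.35 to 0.15 in delta45 against KD. On the same basis Klf10 ran from -0.036 to 0.23 in FL against control, and Klf16 from -0.14 to 0.14 in delta45 against KD and from -0.0385 to 0.0765 in FL against control.

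The labels do not say whether libraries of the same replicate number were made together. Same-numbered libraries had correlations of deviations from their group means between -0.20 and 0.27 (median 0.11), with 9 of 18 pairs over 0.1. Libraries of other numbers had correlations between -0.32 and 0.38 (median -0.03), with 9 of 36 pairs over 0.1. Of 12 libraries, 9 correlated best with their own number. With a replicate block, 6593, 7627, 7849, 6936, 7819 and 8408 genes were called in the same order of comparisons, and 1 member value changed its call, Klf3 in delta45 against KD (0.51, adjusted p = 0.0358).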
